A study of Mus musculus with 6 samples.

Results

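p53 and 9 of its established target genes (Trp53, Cdkn1a, Mdm2, Trp53inp1, Ccng1, Phlda3, Eda2r, Zmat3, Aen and Sesn1) were compared between circEZH2_005-overexpressing and vector intestinal crypt stem cells. These 10 genes were taken by name from the 28752 genes of the deposited table, and all 10 passed the filter on low counts. The study sequenced RNA from 6 samples in 2 groups of 3. The paper isolated Lgr5-positive intestinal stem cells (ISCs), which divide at the base of the crypt, from Lgr5-GFP mice and grew them into crypt-villus organoids. For the 6 sequenced samples, the titles say intestinal crypt stem cells and the paper says intestinal crypt cells. The vector samples are labelled WT and the others carried circEZH2_005 from an adenovirus, a circular RNA derived from exons of Ezh2. All 6 samples were exposed to hypoxia/reoxygenation (H/R), with 4 h at 2% O2 after 72 h of infection. The effect of H/R itself on these genes was therefore not measured. The libraries were made from polyadenylated RNA, so the table does not measure circEZH2_005. Neither the labels nor the paper tie replicate numbers to animals, and p-values measure the spread between these samples.

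p53 is a transcription factor that is held at low levels by the ubiquitin ligase MDM2 and is stabilised by DNA damage and other stress, largely at the protein level. Stabilised p53 binds a response element near its target genes and raises the transcription of genes for cell cycle arrest, apoptosis, DNA repair and metabolism, together with Mdm2 and Ccng1, which act back on p53. In the crypt, p53 is best known for the arrest and death of dividing cells after irradiation. The p53 protein itself was not part of these measurements, so only the mRNA of p53 and of its targets is described.

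The response element consists of a pair of 10-base elements, each with the core CWWG, where W is A or T. It was searched in RefSeq promoter windows (GRCm38.p6) that run from 250 bases before to 50 bases after a start site, with at most 2 mismatches to the p53 consensus, the C and G of each core intact, and 0 to 13 bases between the elements. The consensus reads the same on both strands, so both were covered. Windows were found for 8 of the 10 genes, not for Trp53inp1 and Zmat3. Of these 8 genes, 3 (Cdkn1a, Ccng1 and Sesn1) held a match, against 4.71% of 27025 genes with a window. With no base between the elements, only the windows of Cdkn1a and Ccng1 held a match among the 8, against 0.392% of all genes. These 2 matches are shown because the log2 fold changes of their genes had opposite signs. The capitals mark the cores. The mismatch of the Ccng1 match lies within its first core, and that of the Cdkn1a match lies outside the cores.

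Cdkn1a, chr17:29090928-29090947, plus strand, first base at -51 from the start site of the outermost Cdkn1a transcript, 1 mismatch: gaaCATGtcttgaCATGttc

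Ccng1, chr11:40755462-40755481, minus strand, first base at -195 from the start site, 1 mismatch: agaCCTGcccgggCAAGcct

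The same Cdkn1a window also held a match with 12 bases between the elements and 0 mismatches, which shares its second element with the first element shown. The other Cdkn1a window searched, chr17:29093519-29093818, belongs to a start site further downstream and held no match. A match of letters is not evidence of binding, and response elements outside these windows were not searched.

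The genes did not move together. Ccng1 fell and Trp53inp1 rose with circEZH2_005, each with an adjusted p under 0.05 from edgeR's quasi-likelihood test, and the other 8 genes did not pass the test. Over all 18348 genes tested, 3.67% passed in either direction, 2.69% as higher and 0.986% as lower. Of the 10 genes, 4 had a positive and 6 a negative log2 fold change, with a median of -0.20 beside 0 for all genes tested. The 3 samples of each group did not overlap in 7 of the 10 genes, 4 higher and 3 lower, where the same held for 30.6% of all genes tested (16.4% higher and 14.2% lower). At an unadjusted p under 0.05 there were again 7 of the 10, against 23.7% of all genes. A fold change over 2 or under 0.5 with an unadjusted p under 0.05 was met by Eda2r alone, which was lower, where 7.56% of all genes met these limits (6.22% higher and 1.34% lower). In samples of mixed cells, a lower value may come from fewer cells of a type or from less RNA per cell. Likewise, a higher value may come from more cells of a type or from more RNA per cell. These cannot be told apart here.

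**Figure D1:**
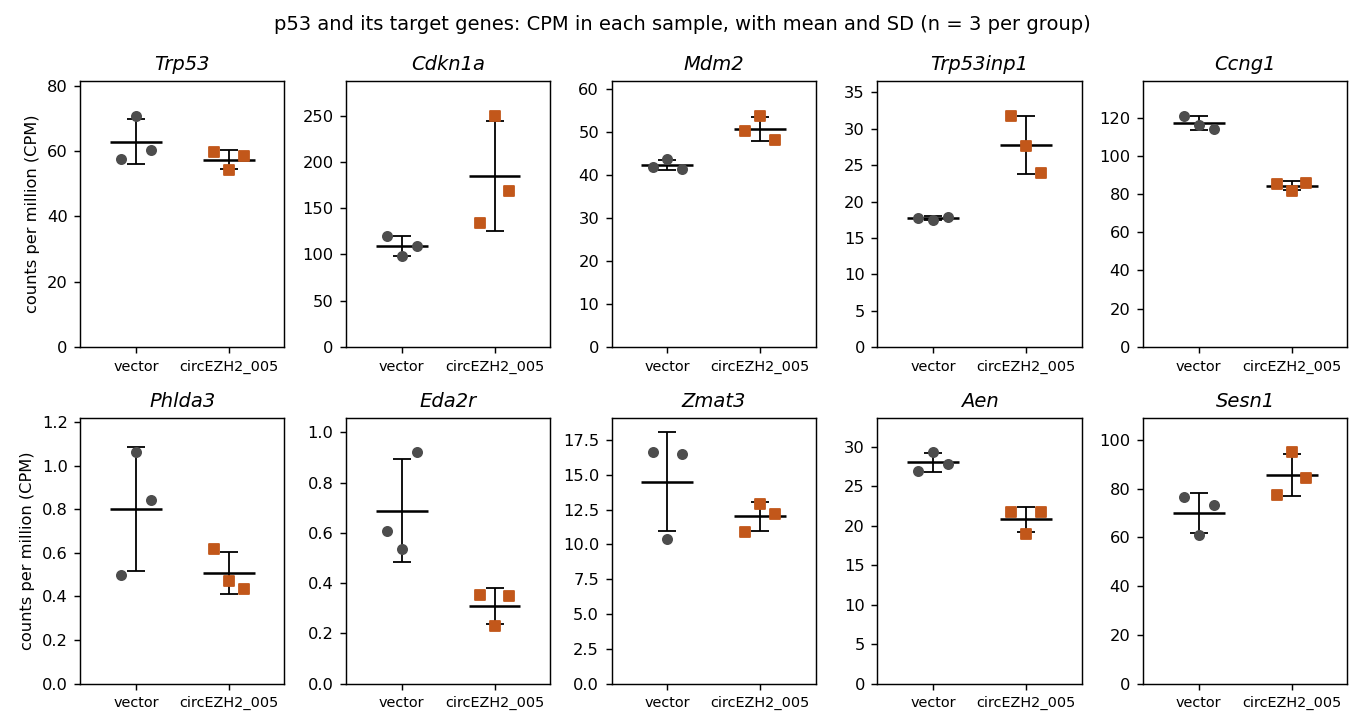
CPM (counts scaled to the library, vertical axis, linear from 0, a scale of its own in each panel) of the 10 genes in the 3 vector samples (grey circles) and the 3 circEZH2_005 samples (orange squares), in replicate order from left to right, with the mean and SD of each group. All circEZH2_005 samples lie above all vector samples for Cdkn1a, Mdm2, Trp53inp1 and Sesn1 and below them for Ccng1, Eda2r and Aen, and the groups overlap for Trp53, Phlda3 and Zmat3.

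Trp53 (ENSMUSG00000059552, chr11:69580359-69591873, plus strand, GRCm38), which encodes p53, was detected at similar levels in both groups. Its level was 57.6, 70.9 and 60.4 CPM (counts of the gene per 1e6 counts of the TMM-normalised library) with vector and 59.7, 54.2 and 58.4 CPM with circEZH2_005, in the order of replicates 1 to 3. The groups overlapped, and vector sample 2 was the highest of all. The log2 fold change was -0.13 with a 95% interval from -0.36 to 0.10. edgeR gave a standard error of 0.10 and an adjusted p of 0.469. Without vector sample 2 the log2 fold change was -0.04.

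Mdm2 (ENSMUSG00000020184, chr10:117688875-117710758, minus strand), whose product marks p53 for degradation and whose gene is a p53 target, differed by little but with a narrow spread. Its level was 41.8, 43.7 and 41.4 CPM with vector and 50.2, 53.7 and 48.0 CPM with circEZH2_005, without overlap. Its log2 fold change was 0.26 (standard error 0.08, 95% interval 0.08 to 0.44), above 0 but with an adjusted p of 0.0971 by edgeR.

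Ccng1 (ENSMUSG00000020326, chr11:40748552-40755311, minus strand) encodes cyclin G1, a p53 target that takes part in the feedback on p53 through MDM2. It had the smallest p-value of the 10 genes. Its level was 121, 116 and 114 CPM with vector and 85.4, 81.7 and 86.0 CPM with circEZH2_005, with a coefficient of variation of 3.07% and 2.74%. The groups were well apart, and the fold change was 0.72 (log2 fold change -0.47, standard error 0.07, 95% interval -0.64 to -0.31, adjusted p = 0.0239 by edgeR). Leaving out each sample in turn kept the log2 fold change between -0.50 and -0.45. The adjusted p was 0.126 without vector sample 1, 0.110 without vector sample 3, 0.0792 without circEZH2_005 sample 2 and 0.0634 without circEZH2_005 sample 3, and 0.0719 with the replicate number as a block.

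Cdkn1a (ENSMUSG00000023067, chr17:29090976-29100727, plus strand) encodes p21, the inhibitor of cyclin-dependent kinases through which p53 arrests the cell cycle. Its level was 120, 98.8 and 109 CPM with vector and 134, 250 and 169 CPM with circEZH2_005. Every circEZH2_005 sample was above every vector sample, but sample 2 was far above the other circEZH2_005 samples, and the coefficient of variation was 32.2% in this group against 9.70% with vector. The log2 fold change of 0.76 (standard error 0.21, 95% interval 0.26 to 1.25) was the largest positive one of the 10 genes, and edgeR's adjusted p was 0.0862. The log2 fold change was 0.47 without circEZH2_005 sample 2 and 0.94 without circEZH2_005 sample 1, where it passed (adjusted p = 0.0390). DESeq2 called it on all samples (adjusted p = 0.00319). A gene on the other strand, AC167363.2, shares 273 exonic bases with Cdkn1a in GENCODE M21, and no source used here says whether reads were counted by strand.

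The counts of Cdkn1a and Ccng1, set against each other within a sample, do not depend on the scaling of the library. The ratio of Cdkn1a to Ccng1 counts was 0.990, 0.848 and 0.953 with vector and 1.57, 3.05 and 1.97 with circEZH2_005. This ratio sets a gene with a positive change over a gene with a negative one, so its separation of the groups adds no support. Cdkn1a to Mdm2 was 2.87, 2.26 and 2.62 with vector and 2.66, 4.65 and 3.53 with circEZH2_005, with overlap. Cdkn1a to Trp53 was 2.08, 1.39 and 1.8 with vector and 2.24, 4.61 and 2.9 with circEZH2_005. The ratio to Trp53 also sets a positive change over a negative one, and adds no support. Among the 10 genes, Ccng1 had the highest level per transcript length in vector samples (30.9 ± 0.684 FPKM, SD, n = 3), next to Cdkn1a (28.4 ± 2.36 FPKM), and the samples of these neighbours overlapped. With circEZH2_005 the order was turned, with Cdkn1a at 44.7 ± 12.3 FPKM (SD, n = 3), above every circEZH2_005 sample of Ccng1. In vector samples they were followed by Sesn1 (16.3 FPKM), Trp53 (14.4), Mdm2 (7.70), Aen (4.46), Trp53inp1 (2.52), Zmat3 (1.17), Phlda3 (0.472) and Eda2r (0.106).

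Trp53inp1 (ENSMUSG00000028211, chr4:11156431-11174379, plus strand) encodes a stress-induced protein that promotes p53 phosphorylation, cell death and autophagy. Its level was 17.8, 17.4 and 17.9 CPM with vector and 31.8, 27.6 and 23.9 CPM with circEZH2_005. The vector samples were nearly equal and all circEZH2_005 samples were above them. The fold change was 1.57 (log2 fold change 0.65, standard error 0.12, 95% interval 0.37 to 0.93, adjusted p = 0.0369 by edgeR). Scaling to library size alone gave 0.59 and an adjusted p of 0.0661, so that of the 10 genes 0 higher and 1 lower were left past the threshold under that scaling. The log2 fold change was between 0.54 and 0.75 with each sample left out, and the adjusted p was 0.146 without vector sample 1, 0.152 without vector sample 3, 0.122 without circEZH2_005 sample 2, and 0.0755 with the replicate block.

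Aen, Eda2r, Phlda3 and Zmat3 are targets linked to cell death and growth control, and all 4 had negative log2 fold changes without passing the adjustment. Aen (ENSMUSG00000030609, chr7:78895854-78911209, plus strand), which encodes the apoptosis-enhancing nuclease, was at 27.0, 29.3 and 27.8 CPM with vector and 21.7, 19.0 and 21.8 CPM with circEZH2_005. The groups did not overlap, and its log2 fold change of -0.43 (standard error 0.10, 95% interval -0.65 to -0.21) was just short of the threshold (adjusted p = 0.0545 by edgeR, 0.0106 by DESeq2). The count ratio of Trp53inp1 to Aen was 0.659, 0.594 and 0.643 with vector and 1.47, 1.45 and 1.10 with circEZH2_005. It too sets a gene with a positive change over a gene with a negative one, and adds no support.

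Eda2r (ENSMUSG00000034457, chrX:97333840-97377216, minus strand), which encodes a receptor of the tumour necrosis factor family for ectodysplasin A2, was nearly absent. It had counts of 44, 40 and 72 with vector and 28, 17 and 25 with circEZH2_005, without overlap. Its log2 fold change of -1.15 was the largest in size of the 10 genes and the least precise in absolute terms (standard error 0.42, 95% interval -2.13 to -0.16, adjusted p = 0.155 by edgeR). Phlda3 (ENSMUSG00000041801, chr1:135766119-135769136, plus strand), whose product restrains AKT at the membrane, had counts of 36, 79 and 66 with vector and 49, 35 and 31 with circEZH2_005. These groups overlapped through vector sample 1, with a log2 fold change of -0.66 (95% interval -1.59 to 0.28, adjusted p = 0.372 by edgeR).

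Zmat3 (ENSMUSG00000027663, chr3:32334792-32366014, minus strand), which encodes an RNA-binding zinc finger protein, was at 16.6, 10.4 and 16.5 CPM with vector and 10.9, 12.9 and 12.2 CPM with circEZH2_005. Vector sample 2 was below all circEZH2_005 samples while vector samples 1 and 3 were above them. The log2 fold change was -0.27 (95% interval -0.72 to 0.18, adjusted p = 0.449 by edgeR), and -0.46 without vector sample 2.

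Sesn1 (ENSMUSG00000038332, chr10:41809935-41908424, plus strand) encodes sestrin 1, a stress-inducible inhibitor of mTORC1 signalling. Its level was 76.5, 60.8 and 73.2 CPM with vector and 77.5, 94.9 and 84.4 CPM with circEZH2_005. The groups did not overlap, but circEZH2_005 sample 1 was close to vector sample 1. A log2 fold change of 0.29 was fitted (standard error 0.12, 95% interval 0.02 to 0.56, adjusted p = 0.185 by edgeR). In GENCODE M21 the other members besides Cdkn1a and Sesn1 overlap no other gene, and Sesn1 shares no exonic base with the gene it overlaps, 9930024M15Rik.

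**Figure D2:**
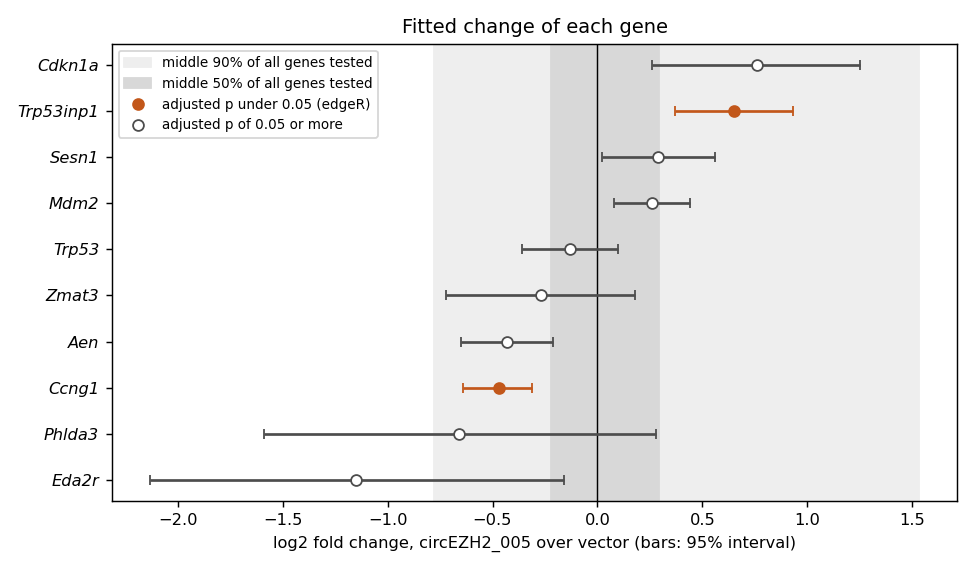
Log2 fold change of circEZH2_005 over vector (horizontal axis) for each of the 10 genes from edgeR, with 95% intervals as bars, filled where the adjusted p is under 0.05. The dark and light bands hold the middle 50% and 90% of all 18348 genes tested, and Eda2r, at -1.15, is the only one of the 10 outside the wider band, which runs from -0.78 to 1.53.

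Within each group, sample 2 was the highest or the lowest for most of the genes, and the direction differed between genes. The exceptions were Trp53inp1 and Phlda3 with circEZH2_005 and Ccng1 with vector. circEZH2_005 sample 2 had the highest level of its group for Cdkn1a, Mdm2, Sesn1 and Zmat3 and the lowest for Trp53, Ccng1, Aen and Eda2r. Vector sample 2 had the highest level of its group for Trp53, Mdm2, Phlda3 and Aen and the lowest for Cdkn1a, Trp53inp1, Eda2r, Zmat3 and Sesn1. No member changed the sign of its log2 fold change when any sample was left out or under any other alternative that gave it a value.

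**Figure D3:**
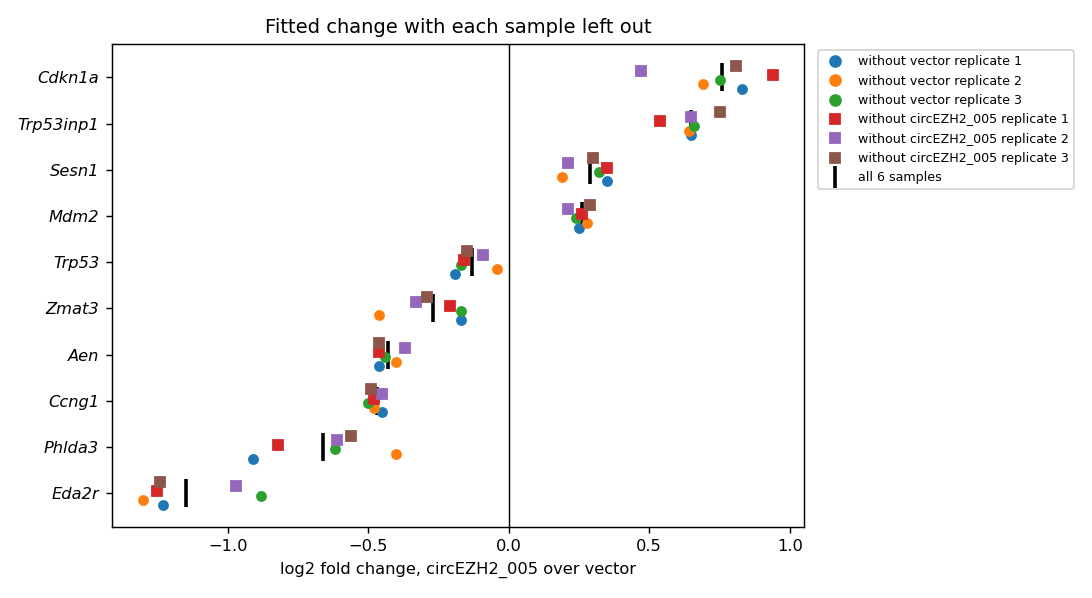
Log2 fold change of circEZH2_005 over vector (horizontal axis) of each gene with all 6 samples (black bars) and with each sample left out (circles, vector samples; squares, circEZH2_005 samples). Every gene stays on its side of 0, and the widest shifts are those of Cdkn1a, from 0.47 to 0.94, and of Phlda3, from -0.91 to -0.40.

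The values of the whole series that bear on these genes are the following. Counts summed to between 71506487 and 79919893 per sample. The log2 CPM of vector sample 2 correlated with the circEZH2_005 samples across genes at 0.965 to 0.971 and with the other vector samples at 0.970, whereas vector samples 1 and 3 correlated with the circEZH2_005 samples at 0.951 to 0.964. The stem cell marker Lgr5, named after its values were seen because the paper isolates its stem cells by it, was at 12.1 to 18.3 CPM with vector and 7.70 to 9.09 CPM with circEZH2_005 (log2 fold change -0.88, adjusted p = 0.0434 by edgeR). The 6 stem cell markers summed to 1650 to 2520 CPM with vector and 1170 to 1730 CPM with circEZH2_005 (0 higher and 2 lower by adjusted p, Lgr5 and Smoc2). Most of these sums was Olfm4, and of the 6 log2 fold changes 4 were negative and 2 positive, Axin2 with 0.31 and Rnf43 with 0.32, neither past the adjusted p. Sums of the 7 epithelial markers were 7270 to 7720 CPM with vector and 8790 to 11000 CPM with circEZH2_005 (1 higher). The 14 leukocyte markers summed to 86.2, 224 and 103 CPM with vector and 491, 391 and 301 CPM with circEZH2_005, with 0 past the adjusted p by edgeR and 5 at an unadjusted p under 0.05, all higher. The 7 enterocyte markers summed to 12600, 11200 and 10600 CPM with vector and 10900, 20000 and 15800 CPM with circEZH2_005 (1 higher), and circEZH2_005 sample 2, with the highest sum, also had the highest level of Cdkn1a. In circEZH2_005 sample 1 the sum was below those of vector samples 1 and 2. There Sis (2290 CPM, against 4040 to 4910 with vector) and Fabp1 (485, against 852 to 1300) were below every vector sample. Fabp2, Apoa1, Apoa4 and Lct were above every vector sample in it, and Alpi lay within the vector range. Cdkn1a, at 134 CPM in that sample, was also above every vector sample. The 8 fibroblast and muscle markers summed to at most 11.1 CPM in any sample, and no marker of these lists was at 0 in all vector samples. The part of these markers in the differences of p53 target genes was not tested.

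A further 39 p53 target genes were taken from a list by role, of which 37 passed the filter. Of these, 4 rose and 0 fell by adjusted p, where 2.69% and 0.986% of all genes tested did so, and 33 did not pass. The genes that rose were Btg2, Gadd45a, Pmaip1 and Apaf1, the first pair being growth arrest genes and the second acting in apoptosis. The median log2 fold change was 0.04, beside 0 for all genes tested, with 21 positive and 16 negative values. At an unadjusted p under 0.05 there were 9 higher and 2 lower, with 23.7% of all genes under that p. DESeq2 gave 9 higher and 0 lower by adjusted p, and 1574 higher and 698 lower over all genes.

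By role, the median over the 10 growth arrest genes was a log2 fold change of 0.48, with a range from -0.55 to 2.64, with 2 higher by adjusted p. The upper end was Ptprv, with low counts of 10, 29 and 0 with vector and 110, 70 and 69 with circEZH2_005 (adjusted p = 0.155 by edgeR). Btg2, an antiproliferative gene, was at 36.1, 37.9 and 38.3 CPM with vector and 47.9, 63.6 and 63.0 CPM with circEZH2_005 (log2 fold change 0.64, standard error 0.12, adjusted p = 0.0375 by edgeR). Gadd45a, which is induced by DNA damage and other stress and promotes arrest, was at 20.5 to 22.0 CPM with vector and at 28.1, 37.1 and 39.3 CPM with circEZH2_005 (log2 fold change 0.72, standard error 0.13, adjusted p = 0.0367 by edgeR). Both were higher in every circEZH2_005 sample than in any vector sample. Gadd45a shares 337 exonic bases with E230016M11Rik on the other strand.

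The 10 apoptosis genes had a median of 0.20, also with 2 higher. Pmaip1, which encodes the BH3-only protein NOXA, was at 22.4 to 25.3 CPM with vector and at 39.8, 48.1 and 38.7 CPM with circEZH2_005 (log2 fold change 0.80, standard error 0.11, adjusted p = 0.0202 by edgeR). Apaf1, the scaffold of the apoptosome, was at 106, 104 and 111 CPM with vector and 147, 177 and 149 CPM with circEZH2_005 (log2 fold change 0.56, standard error 0.09, adjusted p = 0.0301 by edgeR). The samples of the groups were apart for both genes.

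All 4 of these calls were lost without vector sample 1, without vector sample 3 and without circEZH2_005 sample 2, where none of the 37 genes passed, and with the replicate block. Calls over all genes fell as well in these fits, from 493 higher and 181 lower to 26 and 2 without vector sample 1, 31 and 2 without vector sample 3, and 62 and 6 without circEZH2_005 sample 2. Without circEZH2_005 sample 3 only Pmaip1 passed of the 37, with 136 higher and 33 lower over all genes. Their log2 fold changes stayed between 0.47 and 0.86 with each sample left out.

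The median log2 fold change was 0.00 over the 8 tested genes of metabolism and redox, over the 5 of DNA repair and nucleotide supply -0.17 and over the 3 that act back on p53 -0.18, with 0 past the adjusted p by edgeR in each of these roles. Their log2 fold changes lay between -0.23 and 0.39.

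**Figure D4:**
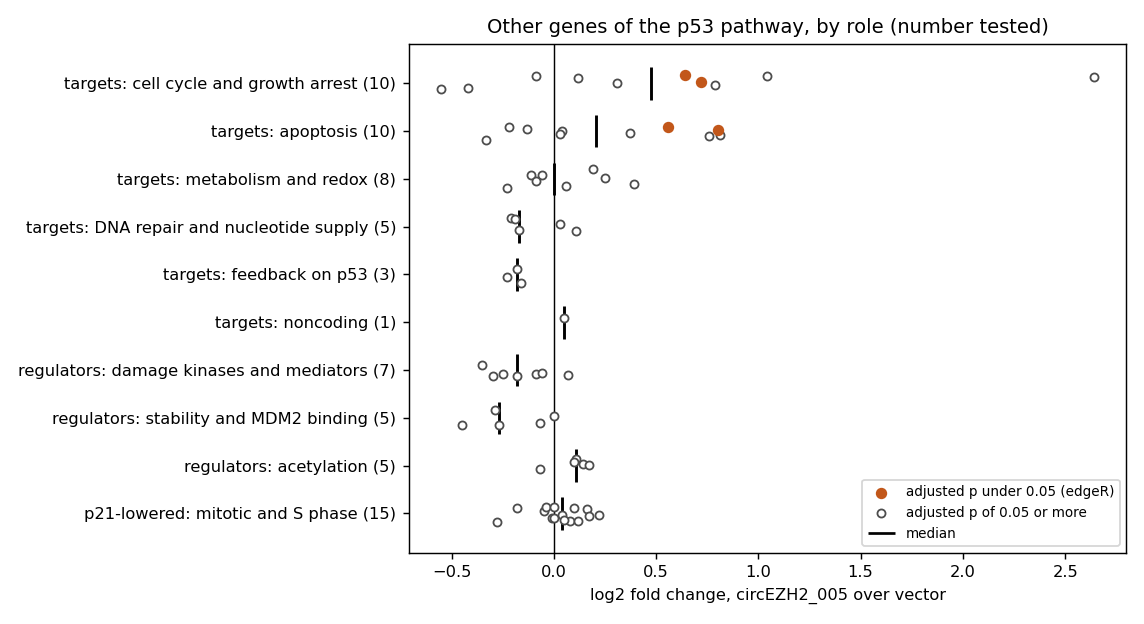
Log2 fold change of circEZH2_005 over vector (horizontal axis) of the other p53 target genes, of regulators of p53 and of cell cycle genes lowered through p21, by role, with the number tested in parentheses. Filled points have an adjusted p under 0.05 by edgeR, bars are medians, and the 4 filled points, all positive, are growth arrest and apoptosis genes, while the 15 cell cycle genes lie between -0.28 and 0.22.

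No regulator of p53 passed the test. Of 20 listed regulators 19 were in the table and 17 were tested, with 0 past the adjusted p by edgeR, by DESeq2 and by limma, and 4 at an unadjusted p under 0.05, all lower, where 23.7% of all genes had such a p. Their median log2 fold change was -0.07, with a range from -0.45 to 0.17. The smallest p-values were those of Rpl11, a ribosomal protein that binds MDM2, and of Hipk2, a kinase that phosphorylates p53. Rpl11 was at 384, 432 and 374 CPM with vector and 350, 293 and 332 CPM with circEZH2_005 (log2 fold change -0.29, adjusted p = 0.143 by edgeR). Hipk2 was at 118, 106 and 124 CPM and at 89.4, 99.2 and 105 CPM (log2 fold change -0.25, adjusted p = 0.176 by edgeR).

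Cell cycle genes that p53 lowers through p21 showed no detectable difference. Of 15 genes tested, 0 passed the adjusted p by edgeR, by DESeq2 and by limma, and 0 had an unadjusted p under 0.05. Their median log2 fold change was 0.04 and all lay between -0.28 and 0.22. The smallest p-values belonged to Bub1, a kinase of the mitotic checkpoint, with a log2 fold change of -0.28 (95% interval -0.70 to 0.15), and Mybl2, a transcription factor of dividing cells, with 0.22 (95% interval -0.12 to 0.57). The adjusted p was 0.405 for Bub1 and 0.415 for Mybl2 by edgeR.

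The genes most like Cdkn1a over the 6 samples, by Pearson's r of log2 CPM among 9259 other genes with a mean of at least 10 CPM, were Dgkq and Dok4 with 0.9995 each and Optn with 0.9974. They encode a diacylglycerol kinase, a docking protein and an autophagy receptor. Most like Trp53 were Brix1 with 0.9886 and Rpf2 and Psma3 with 0.9876 each, which encode a pair of ribosome assembly factors and a proteasome subunit. With 6 samples such values are common, since 367 genes had an r over 0.95 with Cdkn1a and 72 with Trp53, and they include the difference between the groups.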

How the data were processed

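The authors deposited a count of reads and an FPKM value for every gene in each of the 6 samples. The submitters' processing notes list cutadapt 1.9, HISAT2 2.0.4, StringTie 1.3.4d, DESeq2 and the build mm10. The counter, its strand setting and any filter are not given in the sources used here. The columns headed NC were read as vector, since the labels hold no other control.

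Counts were filtered with filterByExpr and scaled with TMM factors (0.931 to 1.04). The test was edgeR's quasi-likelihood test (edgeR 4.0.16, R 4.3.3) of circEZH2_005 against vector with no covariate and Benjamini-Hochberg adjustment over all genes tested. A standard error is the absolute log2 fold change over the root of the F statistic. Two-sided exact permutation tests cannot go below p = 0.1 with 3 against 3, and none of the 10 genes reached less. On simulated counts of 17904 genes, edgeR found 163 of 200 genes changed by 1.5 on the log2 scale, and 5.78% of its calls were unchanged genes. The log2 fold changes of the 10 genes were smaller in size, from -1.15 to 0.76. How often edgeR finds changes of that size was not tested.

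Depth gives 3 counts a level of 0.0377 to 0.0419 CPM, and such floors cover counting error only. At most 1.25% of tested genes had the same count in a pair of samples, so no library occurred more than once.

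The 10 genes and the lists were chosen with earlier results of these data known. Named are all 10 genes, list genes with an adjusted p under 0.05 (otherwise the 2 with the smallest p), and the 3 genes most like Cdkn1a and Trp53. The rule also names the 3 markers with the highest mean count in each list, and these are given within the sums instead. Alternatives covered scaling, filter, DESeq2 1.42.0, limma 3.58.1 on log2(FPKM + 1) and log2(FPKM + 0.1) where the mean FPKM was 0.5 or more, the replicate block and each sample left out.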

Additional observations from a re-analysis of the deposited data

How the results depend on the processing

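The sign of each of the 10 log2 fold changes was the same under every alternative that gave a value, whereas the calls were not. With 2 of the 10 genes past an adjusted p of 0.05 in the reported fit, 1 passed with scaling to library size alone, 1 without a filter, 4 with DESeq2, 1 with limma at each pseudocount and 0 with the replicate block. Leaving out a sample gave between 0 and 3. Calls over all genes moved too, from 493 higher and 181 lower to 407 and 221 with library size alone, 132 and 37 without a filter, 1574 and 698 with DESeq2, 371 and 364 with limma at a pseudocount of 1, and 241 and 36 with the replicate block. Ccng1 passed in 8 and Trp53inp1 in 5 of 13 alternatives each. By fold change and unadjusted p, 1 gene passed in the reported fit, 0 with limma at each pseudocount, where Eda2r and Phlda3 were under the FPKM minimum, 0 with the replicate block, and between 0 and 1 with a sample left out. The median log2 fold change of the 10 genes, -0.20, was -0.26 with library size alone, -0.01 and -0.02 with limma on 8 genes at pseudocounts of 1 and 0.1, and between -0.22 and -0.17 with a sample left out. The median of all genes tested moved as well, to -0.062 with library size alone and to -0.074 and -0.094 with limma at these pseudocounts. Of the other p53 targets, 4 passed in the reported fit, 1 without a filter, 9 with DESeq2, 0 with the replicate block and between 0 and 6 with a sample left out. No alternative moved the counts of 0 for the regulators and the p21-lowered genes. Deviations of same-numbered samples from their group means correlated across genes at -0.14, -0.02 and 0.04, so the numbers do not show a pairing. Precision is limited by 3 samples a group and, for Eda2r and Phlda3, by counts under 80 per sample.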
